A study of Mus musculus with 35 samples.

Results

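The genes that build and load major histocompatibility complex (MHC) class I were followed in mouse brain tissue after closed head injury (CHI) and treatment with mesenchymal stromal cells (MSCs). The 10 genes were taken by name, for their roles in class I presentation, with earlier results of these data known. Shares of all genes are given beside their counts for scale and are no independent test. The 10 were H2-K1, H2-D1, H2-Q7 and H2-T23, B2m, Tap1, Tap2, Tapbp, Psmb8 and Nlrc5, of the 21203 genes in the table. All 10 were among the 17131 that passed a filter on low counts. At 1 week post-injury (wpi), all 10 were higher in mice given MSCs that carried IL-4 mRNA than in Sham, in PBS and in MSC mice, where 18.4%, 11.2% and 7.66% of all genes tested were higher. At 3 wpi the class I genes of PBS mice did not differ from Sham by the test, while 9 of the 10 were above Sham after MSCs (1.11% of all genes) and after IL-4 MSCs (2.76%). The MSC count was 5 without 1 mouse, MSC mouse 5, and both counts were 5 against the 3 Sham mice collected at 3 weeks. Compared directly with PBS at 3 wpi, 2 members were higher after MSCs (0.0817% of all genes) and 5 after IL-4 MSCs (2.17%). Both counts were 0 with only the 2 groups in the fit. In 5 of the 10 members every PBS mouse of 3 wpi was above every Sham mouse, against 1.82% of all genes tested.

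Class I molecules show peptides from inside the cell to CD8+ T cells and to natural killer (NK) cells. A heavy chain (H2-K1 and H2-D1 are the classical ones, H2-Q7 and H2-T23 non-classical ones) pairs with the light chain beta-2 microglobulin (B2m). The proteasome cuts the peptides, the transporter made of Tap1 and Tap2 moves them into the endoplasmic reticulum, and tapasin (Tapbp) holds the transporter and the empty heavy chain together while a peptide is loaded. Interferons raise most of these genes, and Nlrc5 is a transactivator that acts on class I promoters. In uninjured brain class I is low compared with lymphoid tissue, and microglia, endothelium and infiltrating leukocytes raise it in inflammation.

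All mice were male C57BL/6N, labelled C57BL/6NCrl, and between 8 and 9 weeks old at the start of the procedures. Sham mice had the surgery without the impact and, per the paper, no injection. A difference between injured mice and Sham therefore includes both the injury and the injection. Injured mice had a closed head injury and, on day 5, an injection into the left hippocampus of PBS, of 150000 MSCs, or of 150000 MSCs transfected with synthetic IL-4 mRNA (IL-4 MSCs). The MSCs were primary cells of the same strain from 1 vendor lot, so RNA of injected cells may be in the tissue. Tissue around the injection site, which the labels call left cortex, was taken 2 days after treatment at 1 wpi or 16 days after treatment at 3 wpi. There were 5 mice in each group, except 4 in PBS at 3 wpi, where the study left out 1 mouse for its anomalous transcript counts. The 5 Sham mice, 2 from 1 week and 3 from 3 weeks, formed 1 group. In the titles, a number before the dash was shared by the mice of each treated group and by no other group, so anything it stands for and the treatment cannot be told apart. The 34 libraries, 1 per mouse, held between 29838423 and 41554322 estimated counts, at which 3 counts were between 0.0722 and 0.101 CPM. CPM is here a gene's estimated count scaled by the total count of its library. The summed CPM of 8 cortex markers was between 516 and 761 and that of 8 hippocampus markers between 426 and 699. That of 10 striatum markers was between 214 and 2536. How far these markers are confined to 1 region was not tested, so the sums alone do not show which regions the tissue held.

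Of the members, 8 lie in or beside the MHC on chromosome 17 of GRCm38. Tapbp is at chr17:33915899-33929292, H2-K1 at chr17:33996017-34000347, Tap1 at chr17:34187553-34197225, Psmb8 at chr17:34197721-34201454, Tap2 at chr17:34203527-34216321, H2-D1 at chr17:35262730-35267499, H2-Q7 at chr17:35439155-35443773 and H2-T23 at chr17:36029773-36032855. B2m is at chr2:122147686-122153083 and Nlrc5 at chr8:94434356-94527272. H2-K1 and H2-T23 are on the minus strand. The heavy chains are near-identical in part, and kallisto splits reads that fit several transcripts. Estimated counts of H2-D1, H2-K1, H2-Q7 and H2-T23 were not whole numbers, within a tolerance of 0.01, in 32 to 34 of the 34 libraries. Those of B2m, Psmb8 and Nlrc5 were whole in all 34. Those of Tap1, Tap2 and Tapbp were not whole in 33 or 34 libraries either. Values of a single heavy chain are uncertain where reads are shared with another, and the sum over 17 heavy chain genes is given below as well.

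Promoters of 8 of the 10 members were found in the RefSeq records of GRCm38.p6, each from 250 bases before to 50 bases after the transcript start. Tap2 and Nlrc5 had none. Class I promoters are known for 2 adjoining parts, an upstream enhancer with a kappa B site and an interferon-stimulated response element, and a downstream module whose X2 and Y boxes are bound by the complex that Nlrc5 joins. The X2 core TGACG and the Y box core ATTGG, starting 24 or 25 bases apart on the same strand, were found in 4 of the 8 members, H2-K1, H2-D1, H2-Q7 and B2m, and in 0.131% of the 32851 promoters of the table. These 4 stretches are shown because they are the element the members share, with both cores in capitals and each read 5′ to 3′ on the gene's own strand.
H2-K1: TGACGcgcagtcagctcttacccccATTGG
H2-D1: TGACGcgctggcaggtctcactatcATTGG
H2-Q7: TGACGtgtaacagttctcacccctATTGG
B2m: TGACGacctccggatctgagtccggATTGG

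The distance from the first base of TGACG to the first base of ATTGG was 25 in H2-K1 (chr17:34000359-34000388), H2-D1 (chr17:35262993-35263022) and B2m (chr2:122147609-122147638) and 24 in H2-Q7 (chr17:35439091-35439119). The search allowed no other distance, and these are the distances of the members. The share of all promoters is therefore no independent test of the members. Apart, the letters are common. TGACG on either strand was in 20.8% of all promoters and in 5 of the 8 members, and ATTGG in 37.4% and in 7 of the 8. Tap1 held both cores, but not at this distance, and Psmb8 held neither. H2-T23 held ATTGG and no TGACG. The printed stretches of H2-D1, H2-T23 and Psmb8 lie inside the annotated spans of these genes and overlap an annotated UTR, although they are upstream of the RefSeq start used. A match describes the letters in this window and does not show a bound site.

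The longer windows of H2-K1, H2-Q7 and B2m are shown for the order of the elements. Capitals mark, from left to right, the kappa B letters GGGGATTCC (H2-K1 and H2-Q7), the interferon-stimulated letters and the X2 and Y cores. The first capitals of B2m are its interferon-stimulated letters. B2m had no match to the exact letters GGGGATTCC, which does not show that it lacks a kappa B site. In H2-Q7 the last capitals are a further Y box core on the opposite strand.
H2-K1: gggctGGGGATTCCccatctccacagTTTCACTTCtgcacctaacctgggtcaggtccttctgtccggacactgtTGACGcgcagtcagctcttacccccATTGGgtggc
H2-Q7: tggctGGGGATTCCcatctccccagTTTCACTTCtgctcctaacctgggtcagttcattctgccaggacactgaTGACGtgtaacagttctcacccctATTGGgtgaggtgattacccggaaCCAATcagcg
B2m: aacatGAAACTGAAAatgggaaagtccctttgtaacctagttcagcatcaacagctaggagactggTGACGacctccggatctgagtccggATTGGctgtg

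These windows are chr17:34000354-34000463, chr17:35439017-35439148 and chr2:122147543-122147643. Each motif was searched on both strands, and matches of different motifs could overlap. Only the fixed letters given here were searched, so a site with other letters would be missed. GGGGATTCC was in 0.25% of all promoters and in 3 members, H2-K1, H2-Q7 and H2-D1. The letters GAANNGAAA, read on the strand opposite the gene, followed it in the same 3 members and were in 7.52% of all promoters on either strand. The form with 1 base more, GAAANNGAAA, was in 3.44% of all promoters and in 2 members. It was on the gene's strand in B2m and on the opposite strand in H2-T23, in capitals in cctactgcTTTCTCTTTCataaagac (chr17:36032808-36032833). The interferon-gamma activated site TTCNNNGAA was in 8.30% of all promoters and, among the members, in Psmb8, in capitals in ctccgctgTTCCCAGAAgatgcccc (chr17:34198090-34198114).

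In Sham mice the members stood at very different levels per transcript length. In TPM, the authors' unit scaled by transcript length, the mean ± SD over 5 mice was 147 ± 7.18 for B2m and 46.0 ± 4.08 for H2-D1. H2-K1 at 33.2 ± 1.17, H2-T23 at 30.9 ± 4.24 and Tapbp at 28.2 ± 1.73 were next. H2-T23 could not be separated from H2-K1 or from Tapbp, while every H2-K1 value was above every Tapbp value. Tap2 at 5.07 ± 0.525 and Psmb8 at 4.76 ± 0.634 could likewise not be separated. Tap1 was at 2.63 ± 0.527, H2-Q7 at 1.10 ± 0.157 and Nlrc5 lowest at 0.379 ± 0.131. In IL-4 MSC mice at 1 wpi B2m reached 851 ± 100.4, H2-D1 356 ± 37.0 and H2-K1 324 ± 37.9 TPM, and the last pair overlapped. H2-T23 was then at 90.4 ± 11.9 and Tapbp at 61.2 ± 6.45. Psmb8 at 37.0 ± 7.40 and H2-Q7 at 34.2 ± 6.05 were within each other's spread, as were Tap1 at 13.9 ± 2.24 and Tap2 at 12 ± 1.28. Nlrc5 was again the lowest, at 5.08 ± 0.675 TPM.

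The first comparison asked what injury and treatment did 2 days after injection. The quasi-likelihood test of edgeR was used, and a gene was counted as changed at a Benjamini-Hochberg adjusted p under 0.05 over all genes tested. All tests were two-sided. Against Sham, 9 of the 10 members rose in PBS mice, where 8.73% of all genes tested rose. All 10 rose in MSC mice, where 11.0% of all genes rose, and all 10 rose in IL-4 MSC mice, where 18.4% of all genes rose. The median log2 fold change of the members was 0.91, 1.2 and 2.80 in the same order, against -0.01, -0.01 and -0.02 over all genes tested. These 3 comparisons share the Sham mice. In bulk tissue, more cells of a type and more RNA per cell cannot be told apart.

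H2-K1, a classical heavy chain, was at 18.1, 19.8, 18.8, 19.3 and 18.8 CPM in the Sham mice. It was at 43.8, 34.4, 36.6, 46.3 and 34.2 CPM in PBS mice, at 45.2, 46.7, 48.2, 50.3 and 49.1 in MSC mice, and at 176, 235, 179, 173 and 192 in IL-4 MSC mice. No treated mouse reached down to Sham, PBS and MSC mice overlapped, and the IL-4 MSC mice stood clear of all others. The log2 fold change of H2-K1 against Sham was 1.00 ± 0.19 (SE) in PBS mice, 1.29 ± 0.19 in MSC mice and 3.26 ± 0.20 in IL-4 MSC mice (edgeR adjusted p = 0.00032, 7.5e-06 and 2.2e-14). H2-D1, the other classical heavy chain, went from 37.7 ± 3.00 CPM (SD, n = 5) in Sham to 71.3 ± 8.03 in PBS, 86.6 ± 6.11 in MSC and 298 ± 34.4 in IL-4 MSC mice. Its 5 IL-4 MSC mice were at 288, 358, 286, 292 and 268 CPM. The fold change of H2-D1 against Sham was 1.84 in PBS mice, 2.22 in MSC mice and 7.52 in IL-4 MSC mice.

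H2-Q7, a non-classical heavy chain of the Qa-2 group, had the largest log2 fold change of the 10 members in IL-4 MSC mice, while in PBS and MSC mice that of Nlrc5 was larger. Sham mice held 0.589, 0.499, 0.529, 0.609 and 0.556 CPM of H2-Q7, which was above the level of 3 counts in every library. PBS mice held 2.16, 1.32, 2.41, 2.4 and 1.27, MSC mice 2.16, 2.36, 1.71, 2.04 and 2.20, and IL-4 MSC mice 17.2, 25, 17.2, 17 and 17.3 CPM. PBS and MSC mice overlapped, and 4 of the 5 IL-4 MSC mice were nearly equal with mouse 2 above them. The log2 fold change of H2-Q7 against Sham was 1.74 ± 0.38 in PBS mice, 1.86 ± 0.37 in MSC mice and 5.00 ± 0.35 in IL-4 MSC mice, the last a 32.1-fold difference (edgeR adjusted p = 5.6e-13).

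H2-T23, which encodes the Qa-1 heavy chain read by the inhibitory NK receptor pair Klrd1 and Klrc1, differed from the other members. It was at 20.01, 20.4, 15.8, 17.8 and 22.5 CPM in Sham and at 20.9, 17, 20.5, 21.5 and 21.6 CPM in PBS mice. The groups overlapped fully, and the log2 fold change of H2-T23 in PBS was 0.04 ± 0.11 (edgeR adjusted p = 0.89). In MSC mice it was at 26.4, 28.3, 25.8, 23.5 and 25.5 CPM, all above Sham, with a log2 fold change of 0.38 ± 0.11 (edgeR adjusted p = 0.014). That call for H2-T23 was lost without Sham mouse 3, which left 9 of the 10 members above Sham in MSC mice. IL-4 MSC mice were at 50.1, 67.8, 62.7, 49.5 and 60.3 CPM, 1.52 ± 0.11 above Sham on the log2 scale (edgeR adjusted p = 8.1e-13).

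The light chain B2m was at 49.4, 44.4, 46.7, 46.7 and 49.5 CPM in Sham and at 93.9, 79.0, 85.1, 106 and 81.6 CPM in PBS mice. In MSC mice B2m was at 99.8, 99.4, 114, 106 and 119 CPM, and in IL-4 MSC mice at 269, 348, 276, 259.6 and 261 CPM. B2m thus overlapped between PBS and MSC mice only, and rose 5.68-fold from Sham in IL-4 MSC mice. Summed over 17 class I heavy chain genes, which does not depend on how shared reads were split among them, the level was 126 ± 5.63 CPM in Sham, 195 ± 18.5 in PBS, 231 ± 7.26 in MSC and 715 ± 83.5 in IL-4 MSC mice. The sum was 0.59, 0.83 and 2.43 above Sham on the log2 scale (edgeR adjusted p = 0.0013, 1.2e-05 and 2.2e-15).

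**Figure D1:**
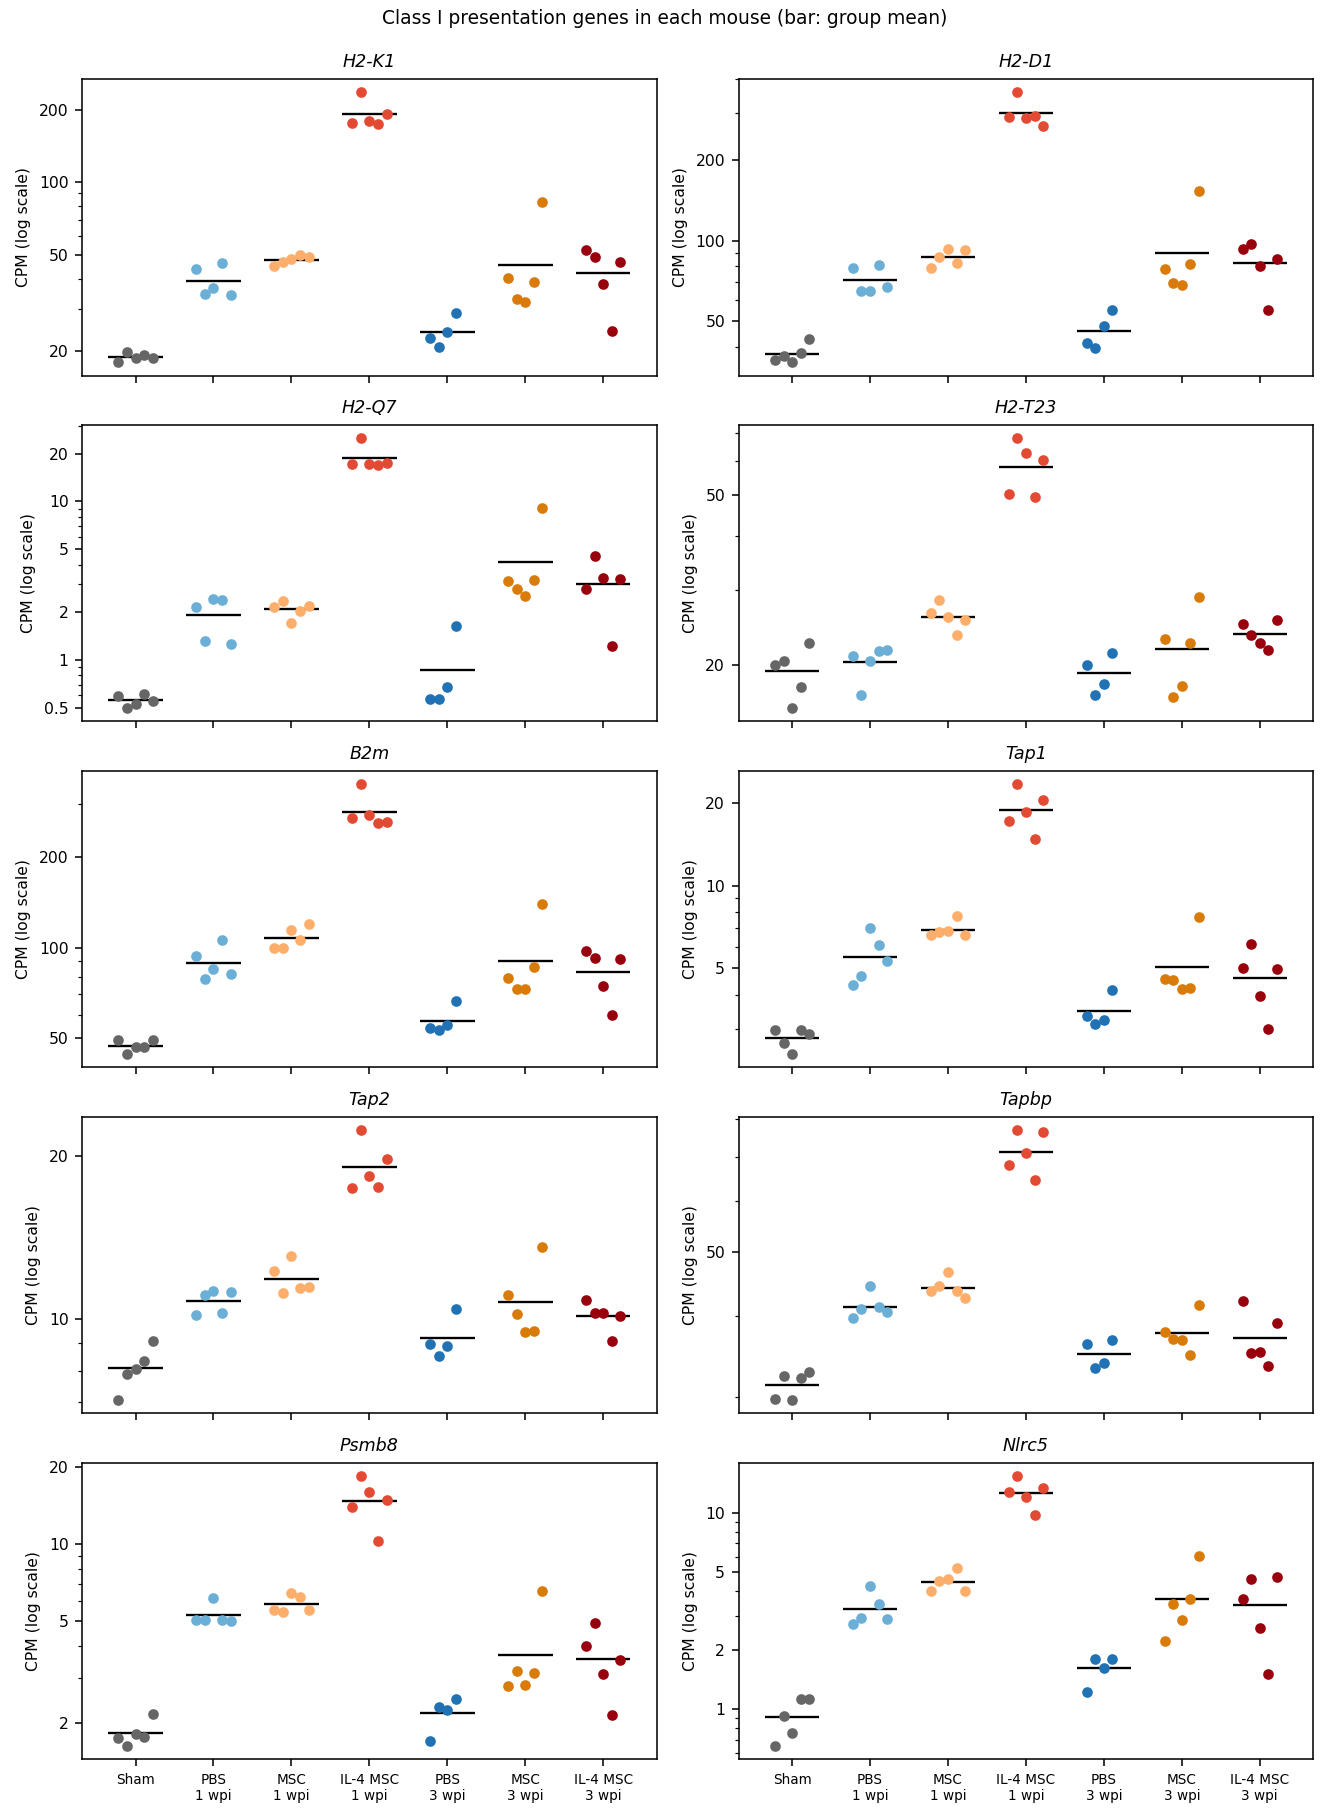
CPM of each of the 10 class I genes on a log axis, 1 point per mouse and a bar at the group mean, in Sham and in PBS, MSC and IL-4 MSC mice at 1 and 3 wpi. The 5 IL-4 MSC mice at 1 wpi stand above every mouse of the other groups in all 10 panels, and H2-Q7 spans from 0.499 CPM in Sham to 25 CPM.

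Among the genes of the peptide transporter and loading complex, Tap2 and Tapbp had the smallest changes of the 10 members from Sham to IL-4 MSCs. In PBS and in MSC mice the change of H2-T23 was smaller. Tap1 was at 2.98, 2.67, 2.44, 2.99 and 2.89 CPM in Sham and at 17.3, 23.4, 18.6, 14.9 and 20.4 CPM in IL-4 MSC mice, a 6.43-fold rise. Its partner Tap2 went from 8.09 ± 0.732 to 19.1 ± 2.04 CPM, a 2.24-fold rise, although both proteins are needed for 1 transporter. Tapbp went from 31.3 ± 1.47 to 71.4 ± 5.39 CPM, a 2.17-fold rise. In PBS mice the log2 fold changes against Sham were 0.93 ± 0.17 for Tap1, 0.38 ± 0.08 for Tap2 and 0.36 ± 0.05 for Tapbp. All 3 genes rose in each of the 3 groups by the test, and none of their 5 treated mice in any group overlapped with Sham. Of all genes tested, 8.09% in PBS, 11.3% in MSC and 20.6% in IL-4 MSC mice were higher than Sham without overlap. The call for Tap2 in PBS mice was lost against only the 2 Sham mice collected at 1 week (edgeR adjusted p = 0.053), which left 8 of the 10 members above Sham.

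Psmb8, the inducible proteasome subunit that takes the place of Psmb5 in the immunoproteasome, was at 1.75, 1.63, 1.81, 1.76 and 2.17 CPM in Sham. It was at 5.04, 5.06, 6.17, 5.05 and 4.98 CPM in PBS mice, at 5.53, 5.41, 6.44, 6.19 and 5.51 in MSC mice, and at 14.0, 18.4, 16, 10.3 and 14.8 in IL-4 MSC mice. These are rises of 2.81-fold, 3.08-fold and 7.65-fold. Nlrc5, the transactivator, had the second largest change of the members from Sham to IL-4 MSCs after H2-Q7. Nlrc5 was at 0.650, 0.922, 0.752, 1.13 and 1.13 CPM in Sham, 2.72, 2.92, 4.25, 3.44 and 2.89 in PBS, 4.00, 4.48, 4.62, 5.25 and 4.01 in MSC and 12.9, 15.4, 12, 9.80 and 13.4 in IL-4 MSC mice. PBS and MSC mice overlapped, and IL-4 MSC mice did not overlap with either. The rise of Nlrc5 was 3.42-fold, 4.67-fold and 13.1-fold.

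The second comparison set the treatments at 1 wpi against each other. All 10 members were higher in IL-4 MSC than in PBS mice, where 11.2% of all genes tested were higher, and in IL-4 MSC than in MSC mice, where 7.66% were. In both comparisons the same 5 IL-4 MSC mice were used. The mice did not overlap between IL-4 MSCs and PBS in any of the 10 members, against 11.5% of all genes that were higher without overlap, nor between IL-4 MSCs and Sham, against 20.6%. Against PBS the log2 fold change was 3.27 ± 0.31 for H2-Q7, 2.26 ± 0.19 for H2-K1, 2.03 ± 0.16 for H2-D1, 1.94 ± 0.22 for Nlrc5, 1.75 ± 0.16 for Tap1 and 1.63 ± 0.14 for B2m. It was 1.48 ± 0.11 for H2-T23, 1.45 ± 0.18 for Psmb8, 0.79 ± 0.08 for Tap2 and 0.75 ± 0.05 for Tapbp. The largest of the 10 adjusted p was 4e-07, for Psmb8. H2-T23 rose about as much from PBS as from Sham, since its PBS and Sham mice overlapped.

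MSCs without IL-4 mRNA were not separated from PBS at 1 wpi. By edgeR 0 of the 10 members differed, where 0.123% of all genes tested were higher in MSC mice. By DESeq2 and by limma voom the count was also 0. Of the members 1, H2-T23, had an unadjusted p under 0.05, with a log2 fold change of 0.34 ± 0.11 (edgeR adjusted p = 0.72), and its 5 MSC mice were above its 5 PBS mice. Of all genes tested, 4.52% had an unadjusted p under 0.05 in either direction and 0.601% were higher without overlap. The other 9 were between 0.09 ± 0.05 for Tapbp and 0.45 ± 0.23 for Nlrc5, all with a higher mean in MSC mice. These values do not show that PBS and MSCs acted alike.

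At 3 wpi, 16 days after treatment, PBS mice had 0 members that differed from Sham by edgeR, where 0.0233% of all genes tested were higher. DESeq2 and limma voom also called 0, and 2 members, Tapbp and Nlrc5, had an unadjusted p under 0.05, as had 5.34% of all genes tested. The levels of the mice gave a somewhat different view. In 5 of the 10 members, H2-K1, B2m, Tap1, Tapbp and Nlrc5, every PBS mouse was above every Sham mouse, against 1.82% of all genes tested. H2-K1 was at 22.6, 20.8, 24.1 and 28.8 CPM in the 4 PBS mice, and B2m at 54.0, 53.1, 55.4 and 66.7. H2-Q7 was at 0.572, 0.567, 0.678 and 1.64 CPM, with 3 mice near Sham and mouse 4 above. The log2 fold change from Sham was 0.33 ± 0.20 for H2-K1, 0.26 ± 0.14 for B2m and 0.78 ± 0.29 for Nlrc5 (edgeR adjusted p = 0.96, 0.96 and 0.78).

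After MSCs and after IL-4 MSCs, the class I genes stood above Sham at 3 wpi. In MSC mice 9 of the 10 members were higher than Sham, where 1.11% of all genes tested were, and in IL-4 MSC mice 9 of the 10, where 2.76% were. H2-T23 was the exception in both, with log2 fold changes of 0.16 ± 0.11 and 0.28 ± 0.11 (edgeR adjusted p = 0.64 and 0.14). H2-Q7 was at 3.13, 2.81, 2.52, 3.19 and 9.15 CPM in MSC mice and at 2.79, 4.54, 3.28, 1.22 and 3.26 in IL-4 MSC mice. No mouse of either group reached down to the Sham range of H2-Q7, and mouse 5 of the MSC group stood far above the rest. The log2 fold change of H2-Q7 was 2.89 ± 0.36 and 2.43 ± 0.36 (edgeR adjusted p = 2e-05 and 0.00028).

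H2-D1 at 3 wpi was at 78.5, 69.3, 68.0, 81.8 and 153 CPM in MSC mice and at 92.9, 96.7, 80.5, 55.1 and 85.5 in IL-4 MSC mice, against 35.1 to 42.7 in Sham. The log2 fold change of H2-D1 was 1.24 ± 0.16 after MSCs and 1.11 ± 0.16 after IL-4 MSCs. Nlrc5 was at 2.23, 3.45, 2.84, 3.66 and 6.06 CPM and at 3.64, 4.58, 2.59, 1.5 and 4.74 CPM, with log2 fold changes of 1.97 ± 0.26 and 1.87 ± 0.26. B2m was at 79.1, 72.7, 73.1, 86.3 and 139.8 CPM in MSC mice and at 97.2, 92.4, 74.8, 59.7 and 92.0 CPM in IL-4 MSC mice. The 2 groups overlapped in each of these genes, and both stood above the Sham range. The smallest called changes were those of Tapbp, 0.25 ± 0.05 and 0.23 ± 0.05, and of Tap2, 0.39 ± 0.08 and 0.31 ± 0.08 on the log2 scale.

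Mouse 5 of the MSC group at 3 wpi had the highest value of its group in all 10 members. Without it, 5 members remained above Sham by edgeR, H2-D1, H2-K1, B2m, H2-Q7 and Nlrc5, and H2-Q7 was 2.37 above Sham on the log2 scale. The same 5 members, in MSC and in IL-4 MSC mice, were called when only the 3 Sham mice collected at 3 weeks were used. In mouse 5 the summed CPM of infiltrating monocyte and macrophage markers was 78.2 and that of 11 T and NK cell markers, without Cd4, 13.5. The other 4 MSC mice were between 27.5 and 36.9 and between 6.69 and 10.2. The summed CPM of endothelial markers was 345 in mouse 5 and between 255 and 274 in the other 4. Mouse 4 of the IL-4 MSC group at 3 wpi had the lowest class I values of its group and the highest sum of striatum markers. That sum was 2536 CPM, against 377 to 1867 in the other 4 and 214 to 868 in Sham. Mouse 4 also had the lowest sum of its group for monocyte and macrophage markers, 26.8 CPM. Its T and NK cell sum without Cd4, 5.73, and its endothelial sum, 239, were the lowest too. With the striatum markers as a covariate, 9 members in MSC and 7 in IL-4 MSC mice were above Sham at 3 wpi. The part of the immune and endothelial cells in the class I values was not tested.

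Against PBS at 3 wpi, fewer members differed. In MSC mice 2 of the 10, H2-D1 and H2-Q7, were higher, where 0.0817% of all genes tested were. Their log2 fold changes were 0.97 ± 0.17 and 2.29 ± 0.37 (edgeR adjusted p = 0.0079 and 0.0048), and 0.70 and 1.78 without MSC mouse 5, both still called. In 7 of the 10 members no MSC mouse overlapped with the PBS mice, against 0.841% of all genes that were higher without overlap. The count of 2 moved with single mice. It was 0 without PBS mouse 1 or 3, 1 without PBS mouse 2, 4 without MSC mouse 2 and 5 without MSC mouse 3. It was 5 by DESeq2 and 1 by limma voom, and with only these 2 groups in the fit it was 0.

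In IL-4 MSC mice at 3 wpi 5 of the 10 members were above PBS, where 2.17% of all genes tested were. These were H2-D1 at 0.84 ± 0.17, H2-K1 at 0.82 ± 0.20, B2m at 0.54 ± 0.14, H2-Q7 at 1.83 ± 0.37 and Nlrc5 at 1.09 ± 0.26 on the log2 scale (edgeR adjusted p between 0.0067 and 0.033). All 5 genes overlapped between the groups, because IL-4 MSC mouse 4 lay below the highest PBS mouse. H2-T23 alone had no overlap, against 1.58% of all genes that were higher without overlap, and its log2 fold change was 0.31 ± 0.12 (edgeR adjusted p = 0.14). The count was 2 without PBS mouse 1, PBS mouse 3 or IL-4 MSC mouse 5, and 3 without PBS mouse 2 or IL-4 MSC mouse 1. With only these 2 groups in the fit it was 0. With the striatum markers as a covariate, 3 members, H2-D1, H2-Q7 and Nlrc5, were called.

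Between the cell treatments at 3 wpi, 0 of the 10 members differed by edgeR, where 2.29% of all genes tested were higher in IL-4 MSC than in MSC mice. DESeq2 and limma voom called 0, and 0 had an unadjusted p under 0.05, against 17.9% of all genes tested. Striatum markers differed between these groups, with 9 of 10 higher in IL-4 MSC mice, and with them as a covariate the count was also 0. The log2 fold changes lay between -0.46 ± 0.29 for H2-Q7 and 0.12 ± 0.11 for H2-T23. The summed heavy chains were at 230 ± 72.4 CPM in MSC mice, 215 ± 35.6 in IL-4 MSC and 143 ± 16.8 in PBS mice.

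**Figure D2:**
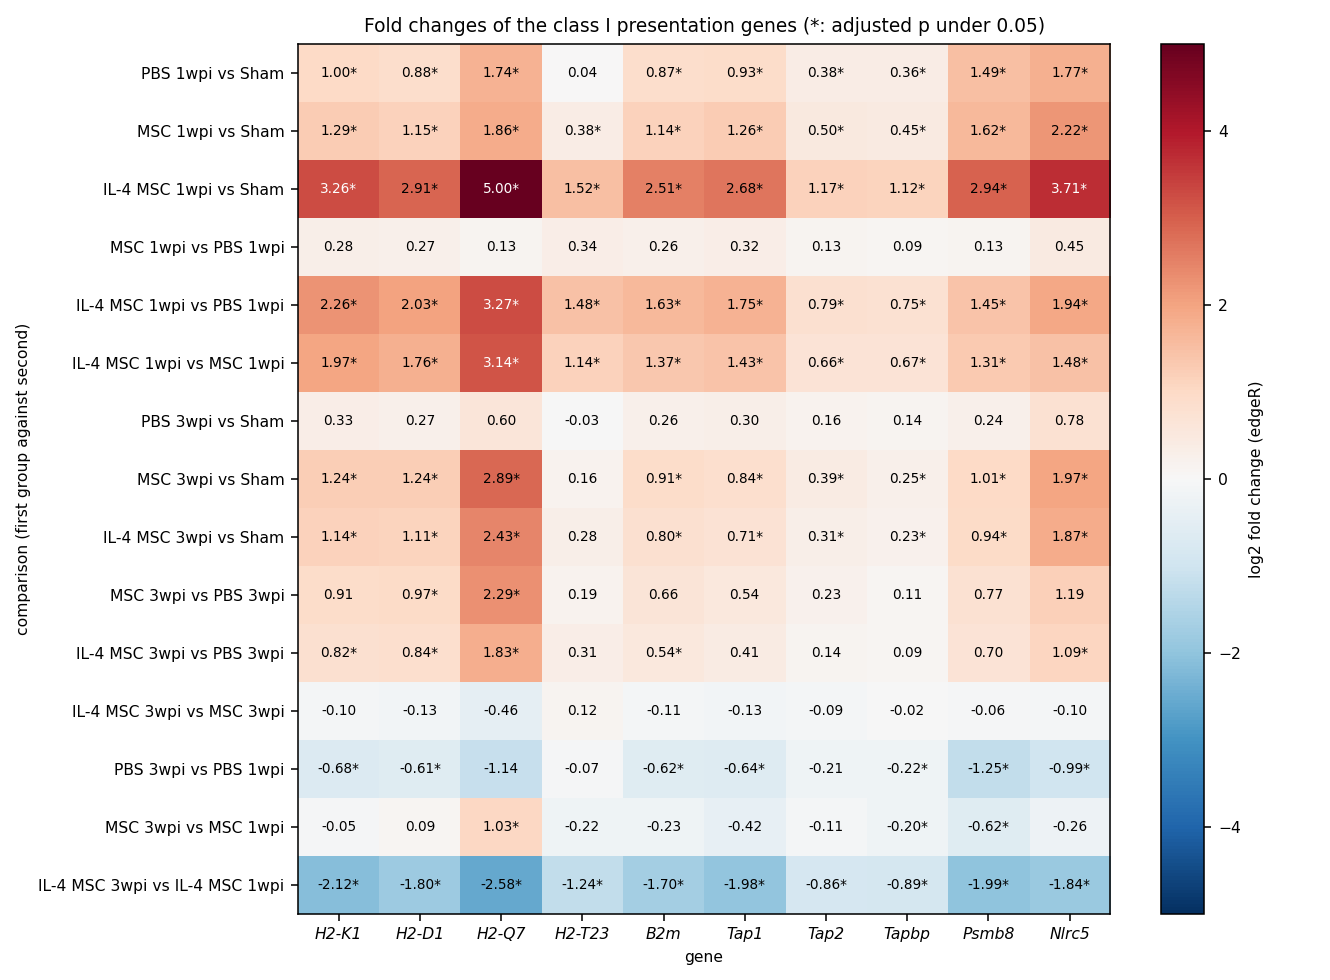
Log2 fold change from the edgeR fit for each of the 10 class I genes (columns) in 15 comparisons (rows), with an asterisk where the adjusted p was under 0.05. All 10 genes carry an asterisk in the rows of IL-4 MSCs at 1 wpi, and 0 do between MSCs and PBS at 1 wpi, between PBS and Sham at 3 wpi and at 3 wpi between the 2 cell treatments.

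From 1 to 3 wpi the class I genes fell in PBS and in IL-4 MSC mice. All 10 members were lower at 3 wpi in IL-4 MSC mice, where 16.6% of all genes tested were lower, with log2 fold changes from -0.86 ± 0.08 for Tap2 to -2.58 ± 0.29 for H2-Q7. In PBS mice 7 of the 10 were lower, where 4.90% of all genes were, led by Psmb8 with a log2 fold change of -1.25 ± 0.21 and Nlrc5 with -0.99 ± 0.26. The 3 not called were Tap2, H2-Q7 and H2-T23. The summed heavy chains, at -0.42 on the log2 scale, were not called in PBS mice either (edgeR adjusted p = 0.059). The PBS count was 3 without PBS mouse 3 of 1 wpi and without PBS mouse 1 or 2 of 3 wpi, and 4 without mouse 4 of 1 wpi or mouse 3 of 3 wpi. It was 4 by limma voom.

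In MSC mice 2 of the 10 members fell between the weeks, where 4.93% of all genes tested fell, and 1 rose, where 1.22% rose. Psmb8 fell by 0.62 ± 0.19 and Tapbp by 0.20 ± 0.05 on the log2 scale, and H2-Q7 rose by 1.03 ± 0.30 (edgeR adjusted p = 0.045, 0.020 and 0.037). H2-D1, with a change of 0.09 ± 0.15, and H2-K1, with -0.05 ± 0.18, were not called. The rise of H2-Q7 was 0.51 and not called without MSC mouse 5 of 3 wpi (edgeR adjusted p = 0.28). The count of 3 was 0 without MSC mouse 3 of 1 wpi, 1 without any of the other 4 MSC mice of 1 wpi or without mouse 3 or 4 of 3 wpi, and 5 without mouse 5 of 3 wpi. With only the 2 MSC groups in the fit it was 1.

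A test of the week interaction asked whether a treatment difference at 1 wpi was larger than the same difference at 3 wpi. For IL-4 MSCs against PBS it was larger at 1 wpi in 7 of the 10 members, where 3.93% of all genes tested were. The difference of log2 fold changes was 1.44 ± 0.27 for H2-K1, 1.17 ± 0.16 for H2-T23 and 0.67 ± 0.08 for Tapbp (edgeR adjusted p = 0.00092, 1.4e-05 and 1.6e-06). The 3 not called were H2-Q7 at 1.44 ± 0.48, Psmb8 at 0.74 ± 0.28 and Nlrc5 at 0.85 ± 0.34. For IL-4 MSCs against MSCs it was larger at 1 wpi in all 10, where 5.96% of all genes were, from 0.69 ± 0.08 for Tapbp to 3.60 ± 0.42 for H2-Q7. For MSCs against PBS 0 members were called by edgeR in either direction. Of all genes, 0% were called with the larger difference at 1 wpi, and the share for 3 wpi is not given. DESeq2 called 1, limma voom 0, and 5 members had an unadjusted p under 0.05, each with the larger difference at 3 wpi, against 3.34% of all genes tested in either direction. Among these H2-Q7 was at -2.16 ± 0.49 (edgeR adjusted p = 0.31).

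Ratios of TPM within a mouse show that the members did not rise in proportion. H2-K1 plus H2-D1 per B2m was 0.539 ± 0.0352 in Sham, 0.563 ± 0.0171 in PBS, 0.570 ± 0.0280 in MSC and 0.800 ± 0.0212 in IL-4 MSC mice at 1 wpi. The 5 IL-4 MSC mice lay between 0.777 and 0.825, above the highest value of the other 1 wpi groups and Sham, 0.616. At 3 wpi the ratio was 0.554 ± 0.0343 in PBS, 0.672 ± 0.0663 in MSC and 0.677 ± 0.0444 in IL-4 MSC mice. PBS mice reached up to 0.594, below the lowest MSC mouse at 0.617 and the lowest IL-4 MSC mouse at 0.605.

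H2-Q7 per H2-K1 was 0.0332 ± 0.00548 in Sham and 0.105 ± 0.00750 in IL-4 MSC mice at 1 wpi, and 0.0908 ± 0.0144 in MSC mice at 3 wpi. H2-T23 per H2-K1 went the other way, from 0.930 ± 0.116 in Sham to 0.280 ± 0.0262 in IL-4 MSC mice at 1 wpi, because H2-K1 rose more than H2-T23. Ratios between heavy chains carry the uncertainty of shared reads. Psmb8 per Psmb5, its constitutive counterpart, was 0.0273 ± 0.00293 in Sham, 0.0794 ± 0.0185 in PBS, 0.0867 ± 0.00698 in MSC and 0.204 ± 0.0408 in IL-4 MSC mice at 1 wpi. At 3 wpi it was 0.0338 ± 0.00708, 0.0571 ± 0.0274 and 0.0538 ± 0.0166. These ratios were chosen after the values were seen, and no test was run on them.

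**Figure D3:**
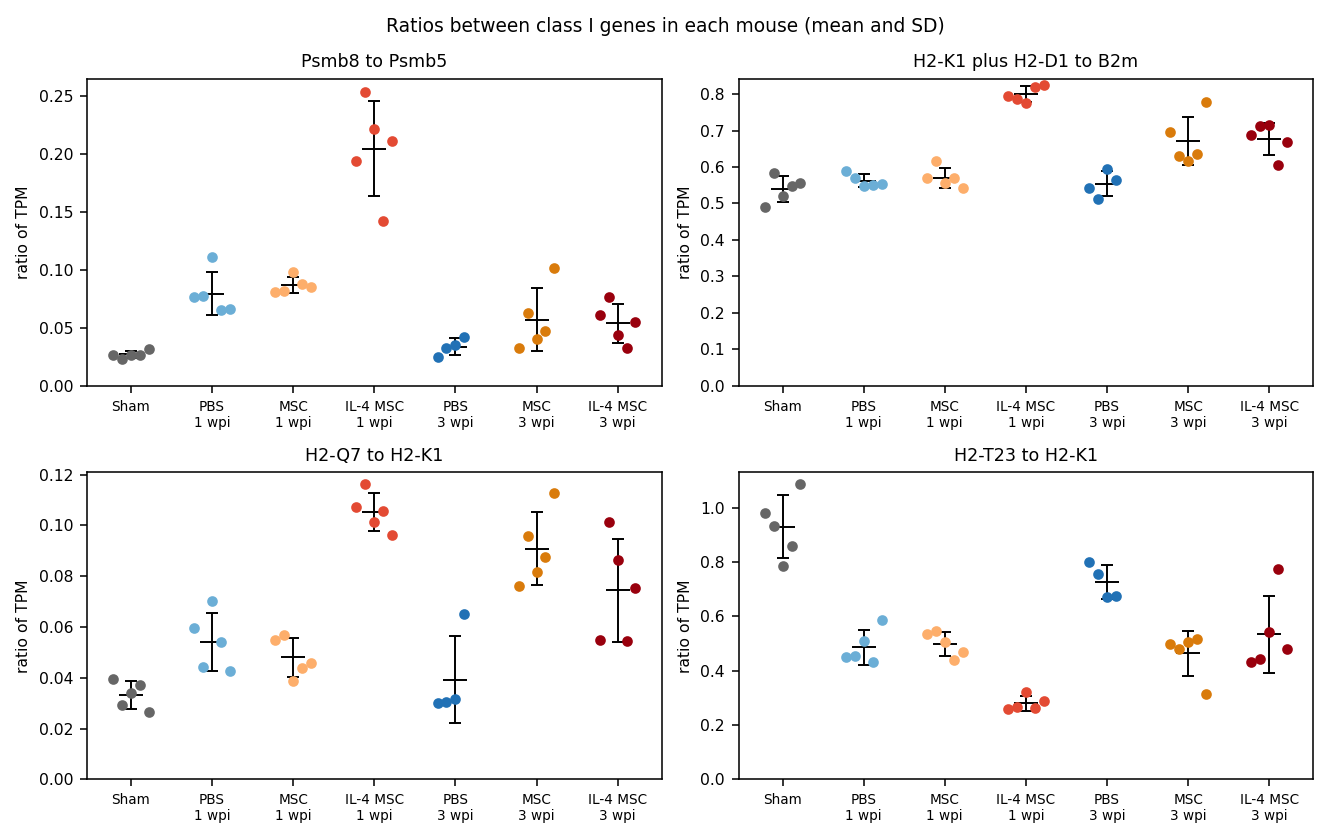
Ratios of TPM between class I genes, 1 point per mouse with the group mean and SD, each axis starting at 0. The ratio of H2-K1 plus H2-D1 to B2m lies between 0.777 and 0.825 in IL-4 MSC mice at 1 wpi and at or below 0.616 in the other 1 wpi groups and Sham, while H2-T23 per H2-K1 falls from 0.930 in Sham to 0.280.

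Across the 34 libraries the members moved together. Pearson's r of log2 CPM for the 45 pairs of members lay between 0.810 (H2-T23 with Nlrc5) and 0.994 (H2-D1 with H2-K1). After removal of the group means it lay between 0.373 and 0.947, with a median of 0.680, so mice of the same group also differed in step. The points share libraries and depth, and the heavy chains share reads. Among the genes most like the mean of the 10 standardised members were H2-Q4 (r = 0.979), Dtx3l (0.964), Ctss (0.960), Parp14 (0.959), Fcgr2b (0.958), Gbp7 (0.957), Irgm2 (0.957), Samhd1 (0.955) and Igtp (0.954). The single gene nearest to H2-D1 was H2-K1 and the reverse, B2m was nearest to H2-K1, Tap1 to B2m, Tap2 to Tapbp, H2-Q7 to H2-D1 and Nlrc5 to Psmb8. Of the members 3 were nearest to a gene outside the 10, Tapbp to Parp12 (r = 0.973), Psmb8 to Epsti1 (0.972) and H2-T23 to Clec4a3 (0.943).

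The other genes of the pathway were read from lists compiled by hand. Of 16 other class I heavy chains tested, 10 rose in IL-4 MSC mice at 1 wpi against Sham, 4 in PBS and 6 in MSC mice. H2-Q4 rose by 2.09 on the log2 scale in IL-4 MSC mice, 0.60 in PBS and 0.80 in MSC mice, and H2-Q4 was still 0.81 above Sham in MSC mice at 3 wpi. H2-T22 and Fcgrt, the neonatal Fc receptor chain that also pairs with beta-2 microglobulin, rose in IL-4 MSC mice by 1.02 and 1.18 and were not called in PBS mice, with H2-T22 at 0.09 and Fcgrt at 0.15. At 3 wpi 2 of the 16 were above Sham in MSC mice and 3 in IL-4 MSC mice.

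The 11 further genes of peptide loading and trimming moved little. In IL-4 MSC mice at 1 wpi 6 rose and 1 fell against Sham, with a median log2 fold change of 0.20. Erap1, the aminopeptidase that trims class I peptides in the endoplasmic reticulum, was the largest of them at 0.87. Among the most abundant, the chaperone Calr rose by 0.20, Canx was at 0.00 and not called, and the cytosolic peptidase Npepps fell by 0.11. At 3 wpi none of the 11 differed from Sham by edgeR in any group.

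Of 6 other genes of the immunoproteasome and its activator, 4 rose in IL-4 MSC, 4 in MSC and 2 in PBS mice at 1 wpi. In IL-4 MSC mice Psmb9, an inducible subunit like Psmb8, was at 2.70, Psme1 and Psme2, the activator chains that interferon-gamma is known to raise, were at 0.67 and 0.54, and Psmb10, the remaining inducible subunit, was at 0.34 on the log2 scale. The assembly factor Pomp at 0.04 and Psme3 at -0.08 were not called. Psmb9 stayed above Sham at 3 wpi, by 1.01 in MSC and 0.99 in IL-4 MSC mice. Of the 14 genes of the standard proteasome core, 0 rose or fell against Sham in any of the 3 groups at 1 wpi, and their medians lay between -0.01 and 0.02.

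Of 21 genes of class I transcription and interferon signalling, 16 rose in IL-4 MSC mice at 1 wpi against Sham, 10 in PBS and 11 in MSC mice. Irf1, a factor that binds interferon-stimulated elements, rose by 1.19 in IL-4 MSC and 0.40 in PBS mice and was 0.41 and 0.37 above Sham at 3 wpi in MSC and IL-4 MSC mice. The abundant receptor chain Ifnar1 rose by 0.24 and the kinase Jak2 by 0.47 in IL-4 MSC mice, while Jak1 at -0.05 and Ifngr2 at 0.13 were not called. The interferon genes Ifng and Ifnb1 themselves held at most 3 counts and 2 counts in any library, and their change was not detectable at this depth.

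Genes that interferons induce changed beside the members. All 12 interferon-induced GTPases rose in IL-4 MSC mice at 1 wpi, with a median of 2.07, and 8 rose in PBS and 9 in MSC mice. All 20 type I interferon-stimulated genes rose in each of the 3 groups, with medians of 1.31, 1.5 and 2.95. At 3 wpi fewer of these genes stood above Sham. In MSC mice 4 of the 12 GTPases and 0 of the 20 interferon-stimulated genes were above Sham, and in IL-4 MSC mice 7 and 4 were, beside 9 of the 10 class I members. Irgm1 was 0.51 above Sham in IL-4 MSC mice at 3 wpi, while Ifit3 at 0.60 and Oasl2 at 0.80 were not called. The difference between the lists was not tested.

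**Figure D4:**
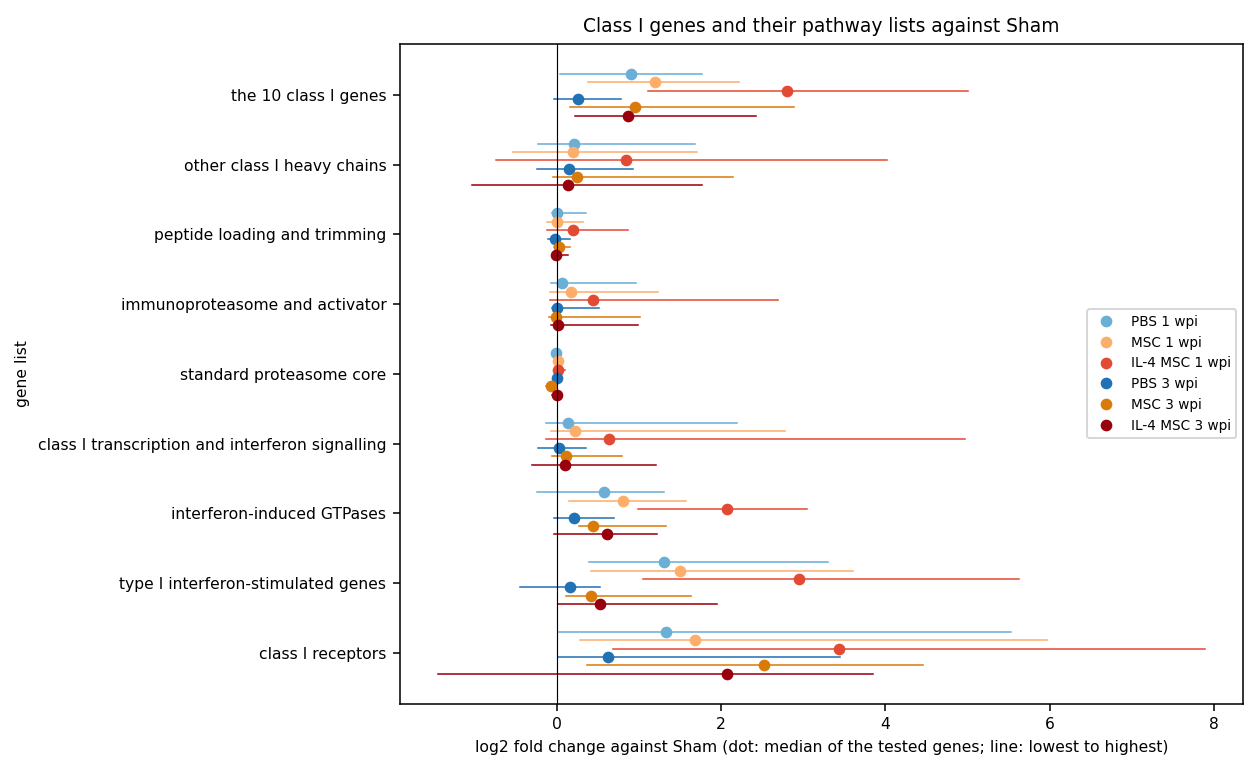
Log2 fold change against Sham for the 10 class I genes and 8 pathway lists, as the median of the tested genes (dot) and the span from lowest to highest (line), in 6 groups. The 10 class I genes have medians of 2.80 in IL-4 MSCs at 1 wpi and 0.96 in MSCs at 3 wpi, while the standard proteasome core stays near 0.

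Genes of a list compiled by hand for receptors of class I also changed. Not every receptor on it is known to read class I. Cd8a, Cd8b1 and Klrb1c are also among the T and NK cell markers below. Of 10 tested, 8 rose in IL-4 MSC mice at 1 wpi against Sham, 3 in PBS and 4 in MSC mice, and at 3 wpi 4 were above Sham in MSC mice and 4 in IL-4 MSC mice. Cd8a, the T cell co-receptor for class I, was 1.24 above Sham in IL-4 MSC mice at 1 wpi, and 2.46 in MSC and 2.21 in IL-4 MSC mice at 3 wpi. Against PBS at 3 wpi Cd8a was 1.92 and 1.67 higher on the log2 scale (edgeR adjusted p = 0.0011 and 0.0027). Pirb, an inhibitory receptor for class I on myeloid cells, rose by 2.95 in IL-4 MSC mice at 1 wpi and was not called at 3 wpi, with 0.98 in MSC and 0.46 in IL-4 MSC mice.

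Markers of immune cells also differed between the groups, though not all in step with the class I genes. From PBS to IL-4 MSCs at 1 wpi the microglia markers had a median log2 fold change of -0.004, against 1.69 in the members. Against Sham at 1 wpi, 9 of 10 microglia markers rose in each of the 3 groups. Of 10 infiltrating monocyte and macrophage markers, 4 rose in PBS, 6 in MSC and all 10 in IL-4 MSC mice, and of 11 T and NK cell markers 0, 1 and 8. The summed CPM of the monocyte and macrophage markers was between 15.2 and 30.7 in Sham, 47.0 and 84.9 in PBS, 56.0 and 97.8 in MSC and 326 and 517 in IL-4 MSC mice. This list holds Mrc1 and Cd163, which the paper found raised only with IL-4 MSCs. The paper also describes IL-4 as a stimulator of CD206, the product of Mrc1. More infiltrating cells and induction by the treatment therefore cannot be told apart in these markers. The microglia sum was between 534 and 687 in PBS and between 589 and 730 in IL-4 MSC mice, which overlapped. Endothelial markers rose in IL-4 MSC mice at 1 wpi, 6 of 8, against 0 in PBS and 1 in MSC mice. Of 8 astrocyte markers 5 rose in each of the 3 groups, and 1 fell in IL-4 MSC mice, and of 8 neuron markers 3 fell in PBS, 2 in MSC and 6 in IL-4 MSC mice.

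At 3 wpi, 8 of 11 T and NK cell markers were above Sham in MSC and 8 in IL-4 MSC mice, against 0 in PBS, and 4 and 6 were above PBS. Cd4 was 1 of the 8 and 1 of the 6 in IL-4 MSC mice. It held up to 711 counts in a library of these mice and up to 112 in PBS mice at 3 wpi. The highest summed CPM of all 12 markers, 24.8, was in IL-4 MSC mouse 4, which also had the highest striatum sum. Without Cd4, a choice made after its values were seen, the summed CPM of the other 11 was between 4.18 and 4.58 in PBS, 6.69 and 13.5 in MSC and 5.73 and 8.72 in IL-4 MSC mice at 3 wpi, and between 3.09 and 4.16 in Sham. The defining T cell marker Cd3e held 0 to 5 counts per library in Sham, 3 to 5 in PBS, 8 to 35 in MSC and 10 to 19 in IL-4 MSC mice at 3 wpi. The markers did not all follow Cd3e. Cd3d, another chain of the T cell receptor complex, held 66.3 to 86.6 counts in PBS, 55.4 to 111 in MSC and 65.8 to 94.5 in IL-4 MSC mice, which overlapped. The NK cell markers Klrb1c and Ncr1 held at most 4.38 and 3 counts in any of these 3 groups. Of the monocyte and macrophage markers, 0 were above Sham in MSC and 2 in IL-4 MSC mice, and of the microglia markers 1 and 4. Among PBS mice at 3 wpi the monocyte and macrophage sum was highest in mouse 3, at 67.3 CPM. The mean log2 CPM of the members was highest in PBS mouse 4, at 3.49 against 3.16 in mouse 3. The monocyte and macrophage sum of PBS mouse 4 was 28.7 CPM. Striatum markers were higher in IL-4 MSC mice at 3 wpi, 8 of 10 against Sham, 10 of 10 against PBS and 9 of 10 against MSC mice. Of 8 hippocampus markers 2 were lower in IL-4 MSC mice at 3 wpi than in Sham, with a median log2 fold change of -0.78. With the striatum markers as a covariate, 5 members in MSC mice and 3 in IL-4 MSC mice were above PBS, against 2 and 5 without it. The part of the immune cells was not tested.

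**Figure D5:**
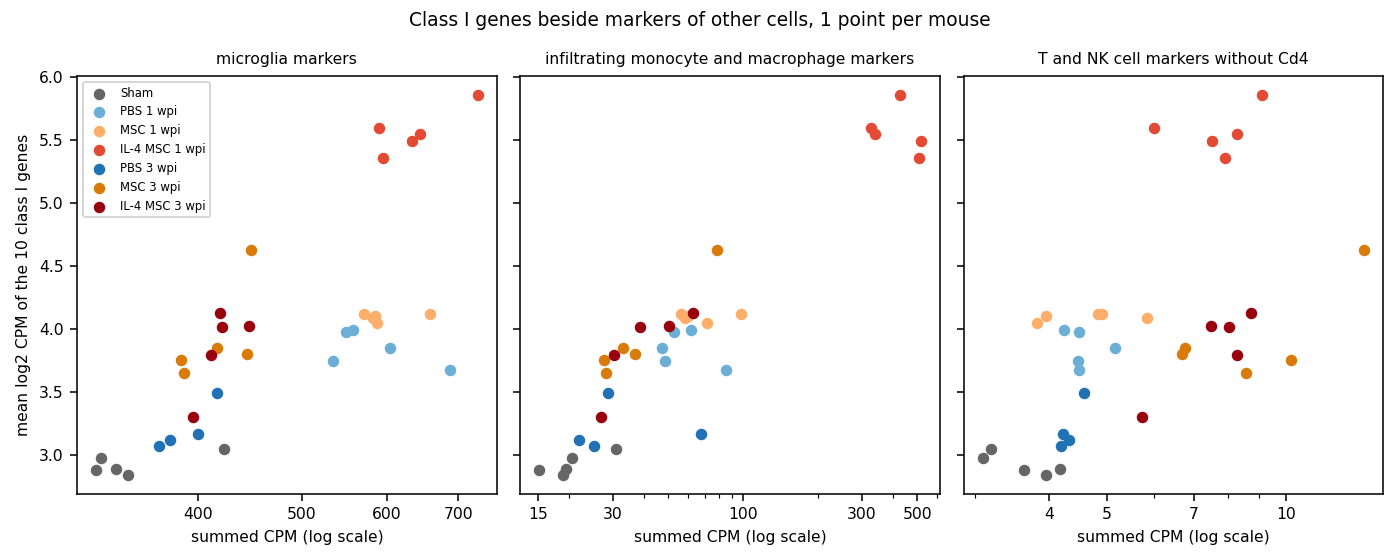
Mean log2 CPM of the 10 class I genes (vertical axis) beside the summed CPM of microglia, of infiltrating monocyte and macrophage, and of T and NK cell markers without Cd4 (horizontal, log axes), 1 point per mouse. IL-4 MSC mice at 1 wpi are the highest on the vertical axis and have 326 to 517 CPM of monocyte and macrophage markers, and T and NK cell sums without Cd4 at 3 wpi are 4.18 to 4.58 CPM in PBS, 6.69 to 13.5 in MSC and 5.73 to 8.72 in IL-4 MSC mice.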

How the data were processed

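Libraries of 35 mice were sequenced, 1 per mouse, and 34 were used here, without the PBS mouse of 3 wpi that the authors left out. Per the paper and the submitters' processing notes, the authors trimmed reads with cutadapt 2.4, quantified them with kallisto 0.46 against the protein-coding transcripts of GENCODE release M23 and tested with sleuth 0.30 in R 3.6.1. The authors deposited estimated counts and TPM per gene, without further normalization, beside their own p-values, q-values and fold changes, which were not used. Positions come from another GENCODE release, M21, and from RefSeq promoters, both on GRCm38, matched by gene ID and symbol.

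Counts were rounded, filtered with filterByExpr, scaled by TMM (factors 0.968 to 1.04) and fitted in 1 model of 7 groups with edgeR 4.0.16 in R 4.3.3, as 15 comparisons and 3 week interactions over 17131 genes. The scripts were tested on simulated data. Correlations used log2 CPM with a prior count of 2. The level of 3 counts covers counting error only. Alternatives were other scalings, no filter, DESeq2 1.42.0, limma 3.58.1 voom, fits of the compared groups only, a replicate block, a striatum covariate, same-week Sham, summed heavy chains and leaving out each mouse. The members and lists were chosen with earlier results of these data known. Named genes were all members, up to 4 of the most abundant genes of each list, the 10 genes most like the members and each member's nearest gene. Others, such as Erap1, Psmb9, Psmb10, Psme2, Irf1, Ifng, Ifnb1 and Cd3e, were chosen after their values were seen. A gene that the rule names is not reported here.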

Additional observations from a re-analysis of the deposited data

Results flagged for a closer look

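Each member was looked at for a mouse far from the others of its group, in 70 sets of 4 or 5 mice, and 14 such values were found. Chance gives about 1 in 20 for independent sets. These sets share mice and the members moved together within groups, so that rate is no benchmark for the 14. Mouse 5 of the MSC group at 3 wpi was far above the other 4 in 6 genes. It was at 153 CPM against 68.0 to 81.8 in H2-D1, 82.7 against 32.0 to 40.4 in H2-K1, 139.8 against 72.7 to 86.3 in B2m, 7.69 against 4.19 to 4.59 in Tap1, 9.15 against 2.52 to 3.19 in H2-Q7 and 6.55 against 2.78 to 3.20 in Psmb8. Mouse 2 of the 1 wpi IL-4 MSC mice was far above in H2-D1 at 358, B2m at 348 and H2-Q7 at 25 CPM. Mouse 4 of the PBS group at 3 wpi was far above in B2m at 66.7 and H2-Q7 at 1.64 CPM. The others were MSC mouse 4 at 1 wpi in Tap1 at 7.77, PBS mouse 3 at 1 wpi in Psmb8 at 6.17 and, below its group, PBS mouse 2 at 1 wpi in H2-T23 at 17 CPM.

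The effect of IL-4 MSCs differed between the weeks by edgeR's interaction test. Against PBS, the log2 fold change at 1 wpi minus that at 3 wpi was 1.19 for H2-D1, 1.44 for H2-K1, 1.09 for B2m, 1.34 for Tap1, 0.65 for Tap2, 0.67 for Tapbp and 1.17 for H2-T23. Against MSCs it was 1.89 for H2-D1, 2.07 for H2-K1, 1.48 for B2m, 1.56 for Tap1, 0.75 for Tap2, 0.69 for Tapbp, 3.60 for H2-Q7, 1.02 for H2-T23, 1.37 for Psmb8 and 1.58 for Nlrc5.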

How the results depend on the processing

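No called fold change of a member turned its direction under the alternatives run. Counts of members called in IL-4 MSC mice at 1 wpi were 10 under each alternative that kept the 10 genes apart. At 3 wpi, counts against Sham were 5 in MSC and 5 in IL-4 MSC mice with same-week Sham mice, and 5 in IL-4 MSC mice with only the 2 groups in the fit. For MSCs against PBS at 3 wpi the count of 2 was 5 by DESeq2, 1 by limma voom, 0 with only the 2 groups in the fit, 5 with the striatum covariate and 1 with summed heavy chains (of 7 features). For IL-4 MSCs against PBS the count of 5 was 0, 3 and 3 under the last 3 of these. From 1 to 3 wpi, PBS gave 4 by limma voom and MSC 1 with only the 2 groups in the fit. The MSC against PBS interaction gave 1 by DESeq2. The causes were not tested, beyond the smaller number of samples or features in some fits. The share of all genes called under each alternative, or without each mouse, is not given here or above. A changed count is therefore not shown to be particular to the members.

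Leaving out each mouse in turn gave 5 to 9 members for MSCs and 6 to 9 for IL-4 MSCs against Sham at 3 wpi. It gave 0 to 5 for MSCs and 2 to 6 for IL-4 MSCs against PBS, and 3 to 8 for PBS and 0 to 5 for MSCs between the weeks. The interaction of IL-4 MSCs with PBS gave 7 to 9. Replicate numbers shared between groups did not pair the mice. Of 99 same-numbered pairs, 24 had a correlation over 0.1 (range -0.462 to 0.400), and 6 of 34 libraries correlated best with their own number. With the replicate block, 10 members were called for IL-4 MSCs against Sham at 1 wpi, 2 for MSCs and 4 for IL-4 MSCs against PBS at 3 wpi, and 5 for PBS between the weeks. H2-Q7 and Nlrc5 had the lowest mean CPM of the members, and how far depth limits each member was not compared.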
